A study of Mus musculus with 8 samples.

Results

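The insulin-like growth factor (IGF) system was examined in small blood vessels (microvessels) taken from mouse brain after an experimental stroke. It comprised 10 genes, selected by gene name alone from the 48404 genes listed in the authors' deposited table: the ligands Igf1 and Igf2, the receptors Igf1r and Igf2r, and the binding proteins Igfbp2, Igfbp3, Igfbp4, Igfbp5, Igfbp6 and Igfbp7. All 10 were among the 19294 genes with a deposited p-value. The tested animals were wild-type C57BL6 mice with tMCAO, a stroke model made by transient occlusion of the middle cerebral artery, which supplies much of a hemisphere and is reopened afterwards (4 libraries). They were compared with sham-operated wild-type C57BL6 mice (4 libraries). The length of the occlusion, the time of sampling, the age of the mice and the way the vessels were isolated are not stated in the labels, nor is it stated whether each library came from its own animal, so p-values reflect variation among 8 libraries that may be technical in part.

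IGF1 and IGF2 are small secreted proteins related to insulin. Both act through IGF1R, a receptor tyrosine kinase that drives growth and survival through PI3K and mTOR, whereas IGF2R, the cation-independent mannose 6-phosphate receptor, has no kinase and removes IGF2 for lysosomal breakdown. Binding proteins hold the ligands in the extracellular fluid or on the matrix, block or prolong their access to IGF1R, and release them when cut by proteases. In brain, Igf1 is known from microglia, macrophages and neurons, Igf2 from choroid plexus, meninges and vessel-associated cells, and Igfbp7 from endothelium.

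Each value below is a log2 fold change (log2FC) of tMCAO over sham from the authors' deposited table, so levels in single libraries and overlap between groups were not analysed here. The deposited p-value was taken to be Benjamini-Hochberg adjusted, and a gene was called at an adjusted p under 0.05. An approximate standard error was recovered from each p-value, and the 95% intervals are built on it. Which group is the numerator is not named in the header. A positive value was taken to mean higher after tMCAO, since injury-induced genes such as Arg1 and Socs3 were strongly positive per the authors' deposited table. Of all tested genes, 32.8% were called, 15.2% higher and 17.6% lower, and their median log2FC was -0.0008.

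Binding proteins made up all of the rises in the family. Of the 6 binding protein genes, 4 rose, 0 fell and 2 did not pass, beside the 15.2% of all tested genes that rose, and the median of the 6 was 1.25 on the log2 scale. At an unadjusted p under 0.05 the count over all 10 members was 5 higher and 1 lower, where 20.1% and 21.8% of all tested genes were called higher and lower. Neither ligand passed, and of the receptors Igf1r fell. Over the whole family 4 of 10 genes rose and 1 fell.

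**Figure D1:**
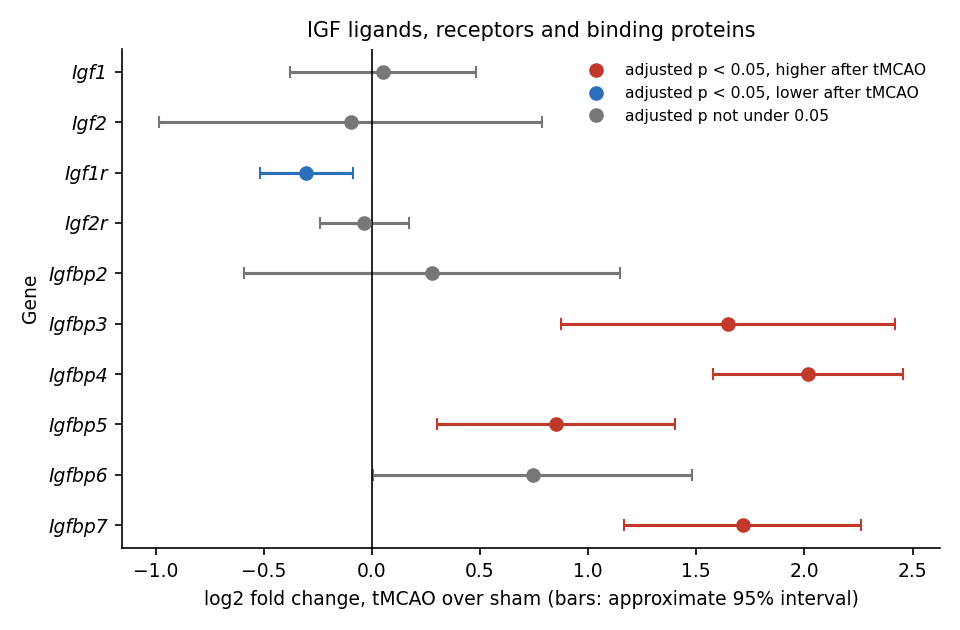
Log2 fold change (log2FC) of tMCAO over sham (x axis) for each of the 10 IGF family genes (y axis, ordered as ligands, receptors and binding proteins). Points are the authors' deposited values, bars are approximate 95% intervals recovered from the p-values, and colour gives the call. Igfbp3, Igfbp4 and Igfbp7 sit furthest to the right, and the bars of Igf1, Igf2, Igf2r and Igfbp2 cross 0.

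Igfbp4, a binding protein that mostly restrains IGF action and is the classic substrate of the protease PAPP-A, had the largest rise of the family. It was 4.04-fold higher after tMCAO per the authors' deposited table (log2FC 2.02, adjusted p = 9.5e-17), with an implied standard error of 0.22 and an interval of 2.99-fold to 5.48-fold. By adjusted p it held rank 39 of the 19294 tested genes, and its fold change lay at percentile 99.0. Igfbp7, a low-affinity IGF binder deposited in vessel basement membrane, was 3.28-fold higher per the authors' deposited table (log2FC 1.71, adjusted p = 6.8e-08), with an implied standard error of 0.28 and an interval of 2.25-fold to 4.79-fold. Its rank by adjusted p was 232. Both intervals lay wholly above no change.

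Igfbp3, the main IGF carrier of blood plasma, was 3.13-fold higher per the authors' deposited table (log2FC 1.65, adjusted p = 0.00033). Its implied standard error of 0.39 was wider than that of Igfbp4, and its interval ran from 1.83-fold to 5.34-fold. Its call was lost when the median of ribosomal protein genes was subtracted from every gene (0.73, adjusted p = 0.076). Igfbp5, which binds matrix and is likewise cut by PAPP-A family proteases, was 1.80-fold higher per the authors' deposited table (log2FC 0.85, adjusted p = 0.011), with an interval of 1.23-fold to 2.64-fold. That call was lost at an adjusted p under 0.01 and when the median of endothelial markers was subtracted (0.35, adjusted p = 0.27), and the value turned to -0.063 with the ribosomal median subtracted. The intervals of Igfbp3, Igfbp4 and Igfbp7 overlapped each other, and each lay above those of both ligands and both receptors. The interval of Igfbp5 overlapped that of Igfbp3 and Igfbp7 but ended below that of Igfbp4. No test of the difference between these genes was made.

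Igfbp6, which prefers IGF2 over IGF1, had a log2FC of 0.74 per the authors' deposited table, close to that of Igfbp5, with an adjusted p of 0.12. Its interval was wide, from 1.003-fold to 2.79-fold, and just above no change, without adjustment for the number of genes. Igfbp6 was the member called higher at an unadjusted p under 0.05 but not by adjusted p. Igfbp2, known from choroid plexus, meninges and astrocytes, had a log2FC of 0.28 per the authors' deposited table (adjusted p = 0.67). Its interval, 0.664-fold to 2.22-fold, admits a rise as large as that of Igfbp5, so this precision does not separate such a rise from no change. All 6 binding protein genes had positive fold changes.

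Igfbp1, the remaining classical binding protein and not a member of the set, had a log2FC of 0.96 and no p-value per the authors' deposited table. It lies beside Igfbp3 on chromosome 11, 3.54 kb away in the GENCODE M21 annotation of GRCm38, with the 2 genes pointing towards each other. Igfbp2 and Igfbp5 form a second such pair on chromosome 1, 5.46 kb apart and also convergent, of which Igfbp5 rose and Igfbp2 did not pass. Neither pair has another protein-coding gene between its members.

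In the same annotation Igfbp4 spans chromosome 11 from 99041244 to 99054392 on the plus strand, Igfbp3 chromosome 11 from 7206086 to 7213923 on the minus strand, Igfbp7 chromosome 5 from 77349240 to 77408041 on the minus strand, and Igfbp5 chromosome 1 from 72857932 to 72874884 on the minus strand. Igfbp7 shares 85 exonic bases with Polr2b on the opposite strand, which had a log2FC of 0.26 and an adjusted p of 0.20 per the authors' deposited table. Whether reads were counted by strand is not stated in the labels.

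The 250 bases before the RefSeq start of each of the 4 genes that rose are shown because these genes moved in the same direction. They come from the RefSeq promoter table of build GRCm38.p6 and read 5′ to 3′ on the strand of the gene. Capitals mark matches on either strand to the motifs TATAAA for the TATA box, GGGCGG for the GC box, CCAAT for the CAAT box, TGANTCA for AP-1, ACGTG for the core of the hypoxia-inducible factor motif, TTCNNNGAA for STAT factors, TGTTTNC for FoxO and GTCTAGAC for SMAD. The windows are chr11:99040994-99041243 plus for Igfbp4, chr5:77408046-77408295 minus for Igfbp7, chr11:7213924-7214173 minus for Igfbp3 and chr1:72874866-72875115 minus for Igfbp5.
Igfbp4: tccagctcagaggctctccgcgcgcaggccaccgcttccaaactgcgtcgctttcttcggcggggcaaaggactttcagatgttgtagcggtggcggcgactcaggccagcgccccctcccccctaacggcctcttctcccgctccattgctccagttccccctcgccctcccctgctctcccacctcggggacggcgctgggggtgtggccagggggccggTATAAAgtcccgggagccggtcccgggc
Igfbp7: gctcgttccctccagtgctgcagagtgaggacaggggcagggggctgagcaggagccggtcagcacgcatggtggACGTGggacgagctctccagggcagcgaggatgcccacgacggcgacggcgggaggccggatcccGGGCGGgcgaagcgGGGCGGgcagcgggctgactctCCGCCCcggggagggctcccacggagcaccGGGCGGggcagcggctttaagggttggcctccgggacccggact
Igfbp3: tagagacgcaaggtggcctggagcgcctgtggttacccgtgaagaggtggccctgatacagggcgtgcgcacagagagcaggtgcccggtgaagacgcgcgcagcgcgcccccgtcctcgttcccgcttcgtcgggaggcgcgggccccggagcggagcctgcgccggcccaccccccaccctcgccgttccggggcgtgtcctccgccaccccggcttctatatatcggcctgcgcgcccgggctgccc
Igfbp5: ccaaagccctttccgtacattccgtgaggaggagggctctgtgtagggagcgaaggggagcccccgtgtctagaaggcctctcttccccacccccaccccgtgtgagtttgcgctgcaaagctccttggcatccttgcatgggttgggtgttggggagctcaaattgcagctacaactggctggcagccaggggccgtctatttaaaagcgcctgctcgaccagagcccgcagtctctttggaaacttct

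No motif was shared by the 4 windows. Igfbp4 held a TATA box from base -28 to -23, a motif present in 12.4% of the 32851 promoter windows in the table. Igfbp7 held 4 GC boxes, present in 32.7% of all windows, and 1 ACGTG match, present in 16.6%. The windows of Igfbp3 and Igfbp5 held none of the 8 motifs as spelled here. Their GC content was 73.2% for Igfbp3, 69.2% for Igfbp4, 74.0% for Igfbp7 and 58.8% for Igfbp5, against a median of 52.4% over all windows. Among the other members, Igf1r, with a GC content of 77.6%, held 2 GC boxes, and AP-1 matches, present in 6.75% of all windows, were found only before Igf1 and before the second of the 2 RefSeq starts of Igfbp2. A match is a run of letters and says nothing about binding.

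**Figure D2:**
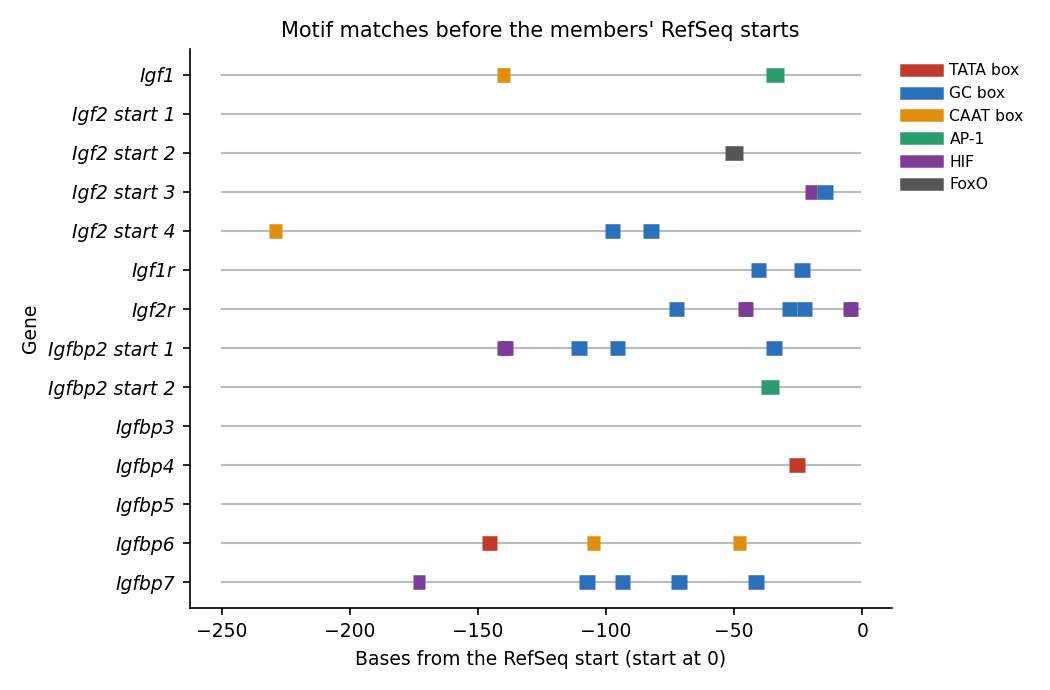
Position of motif matches (coloured blocks) in the 250 bases before each RefSeq start of the 10 IGF family genes. The x axis gives bases from the start, and genes with several starts have a line for each. Igfbp4 has a TATA box near its start, Igfbp7 has 4 GC boxes, and the lines of Igfbp3 and Igfbp5 are empty.

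The ligand genes did not pass the test. Igf1 had a log2FC of 0.05 per the authors' deposited table (adjusted p = 0.88), with an interval of 0.768-fold to 1.40-fold, so a doubling would lie outside it. Igf2 had a log2FC of -0.10 per the authors' deposited table (adjusted p = 0.89). Its interval of 0.506-fold to 1.73-fold was wider, and its implied standard error of 0.45 was above the third quartile of 0.31 over all tested genes. Igf2 shares 3596 exonic bases with the same-strand gene Gm49394 and 98 with the antisense gene Igf2os in GENCODE M21. Gm49394 has no deposited value, and how reads in shared bases were counted is not stated. Igf2os had a log2FC of 0.27 and an adjusted p of 0.65 per the authors' deposited table.

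Igf1r, the signalling receptor, fell slightly, to a level 1.23-fold lower after tMCAO per the authors' deposited table (log2FC -0.30, implied standard error 0.11, adjusted p = 0.022). Its interval ran from 0.698-fold to 0.941-fold, and 17.6% of all tested genes were called lower. The call was lost at an adjusted p under 0.01 and when the deposited p-value was read as unadjusted (adjusted p = 0.082). Igf2r had a log2FC of -0.03 per the authors' deposited table (adjusted p = 0.83), with an interval of 0.846-fold to 1.13-fold. Insr, the insulin receptor gene, singled out after its value was seen, had a log2FC of 0.02 per the authors' deposited table (adjusted p = 0.89).

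**Figure D3:**
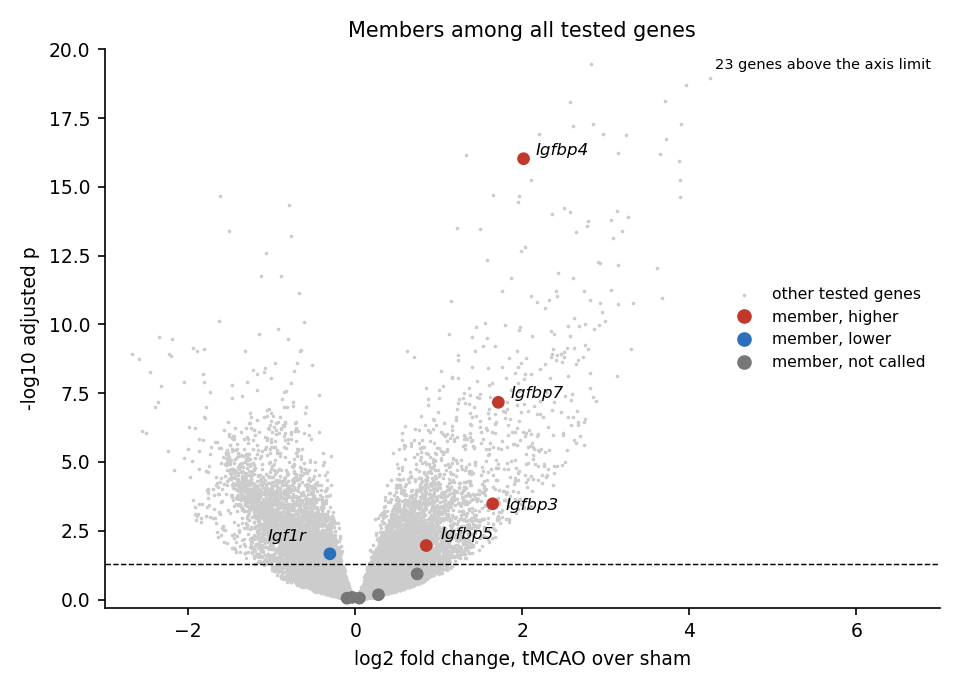
All 19294 tested genes by log2FC of tMCAO over sham (x axis) and -log10 adjusted p (y axis, ending at 20, with 23 genes above it). Grey dots are other genes, larger points are the 10 IGF family genes, and the dashed line is an adjusted p of 0.05. Igfbp4 and Igfbp7 lie towards the upper right among the family, and Igf1r just above the line on the left.

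Proteases that cut binding proteins, and the inhibitors of those proteases, changed in both directions. Of 14 genes in this list, 9 had a p-value, of which 3 rose, 1 fell and 5 did not pass, with a median log2FC of 0.47. Over all tested genes, 15.2% rose and 17.6% fell. Stc1, the gene of stanniocalcin-1, an inhibitor of PAPP-A, was 6.83-fold higher per the authors' deposited table (log2FC 2.77, implied standard error 0.33, adjusted p = 2.6e-14). Htra1, a secreted serine protease whose loss in humans causes a hereditary small vessel disease of the brain, was 1.57-fold lower per the authors' deposited table (log2FC -0.65, adjusted p = 2.1e-05). Its relative Htra3 rose by 1.08 and the membrane protease gene Adam9 by 0.53 on the log2 scale per the authors' deposited table (adjusted p = 0.0082 for Htra3 and 0.0015 for Adam9). Pappa itself had a log2FC of 2.61 but no p-value per the authors' deposited table.

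The imprinted neighbours H19 and Airn rose, while Igf2 and Igf2r did not pass. Of 6 tested genes in the list of imprinted loci and IGF2 mRNA-binding proteins, 2 rose and 0 fell, and 3 and 0 were called at an unadjusted p under 0.05. The shares over all tested genes were 15.2% and 17.6% by adjusted p, and 20.1% and 21.8% by unadjusted p. H19, a noncoding RNA that shares enhancers with Igf2 and lies 72.6 kb from it on chromosome 7, was 6.33-fold higher per the authors' deposited table (log2FC 2.66, implied standard error 0.44, adjusted p = 1.4e-07). Igf2 itself stood at -0.10. Airn, the antisense RNA of the Igf2r locus, rose by 0.61 on the log2 scale per the authors' deposited table (adjusted p = 0.029), while Igf2r stood at -0.03. Airn and Igf2r overlap on opposite strands but share 0 exonic bases. The call of Airn was lost at an adjusted p under 0.01 and when the deposited p-value was read as unadjusted, which left H19 as the 1 called gene of this list.

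Among 11 tested relatives of the ligands, receptors and binding proteins, 1 rose and 2 fell, with a median log2FC of 0.23. Beside this, 15.2% of all tested genes rose and 17.6% fell. Itgb3, an integrin chain reported to bind IGF1, rose by 1.25 on the log2 scale per the authors' deposited table (adjusted p = 8.7e-05). Kazald1, which carries an IGF-binding-protein domain, had a log2FC of -0.65 (adjusted p = 0.017), and Sorcs1, a sorting receptor linked to insulin receptor traffic, one of -0.68 (adjusted p = 0.032), both called lower per the authors' deposited table. Both calls were lost at an adjusted p under 0.01 and with the deposited p-value read as unadjusted, which left 0 lower relatives. Igfals, the acid-labile subunit that joins IGFBP3 in plasma, had a log2FC of 0.41 (adjusted p = 0.52) per the authors' deposited table and was singled out after its value was seen.

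Genes of the signalling path below the receptor were mixed. Of 33 tested genes, 10 rose, 6 fell and 17 did not pass, with a median log2FC of 0.01. The shares over all tested genes were 15.2% higher and 17.6% lower. At an adjusted p under 0.01, 5 were called higher. Socs3, a cytokine-induced inhibitor that also acts on insulin signalling, rose by 3.18 and Eif4ebp1, the translation repressor controlled by mTOR, by 1.58 on the log2 scale per the authors' deposited table (adjusted p = 4.4e-21 for Socs3 and 3.1e-10 for Eif4ebp1). Ptpn1, a phosphatase of the insulin receptor, rose by 0.60 (adjusted p = 7.4e-05) and Inpp5d, a phosphoinositide phosphatase of blood cells, by 0.67 (adjusted p = 0.0056) per the authors' deposited table. The adaptor gene Irs4 had a log2FC of -1.77 (adjusted p = 0.00045), the PI3K subunit gene Pik3r2 one of -0.48 (adjusted p = 0.0002) and Tsc1, an inhibitor of mTOR, one of -0.39 (adjusted p = 0.0041), all called lower per the authors' deposited table.

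Genes known as targets of FoxO, the transcription factors that IGF signalling holds out of the nucleus, were also mixed. Of 12 genes, 2 rose and 3 fell, beside 15.2% and 17.6% of all tested genes, with a median log2FC of -0.11. Trib1 rose by 0.98 and Pdk4 by 0.98 on the log2 scale per the authors' deposited table (adjusted p = 0.00043 for Trib1 and 0.0014 for Pdk4). Ccng2 had a log2FC of -0.75 (adjusted p = 9.0e-08), Sesn3 one of -0.37 (adjusted p = 0.00032) and Klf15 one of -0.47 (adjusted p = 0.029), all called lower per the authors' deposited table. The call of Klf15 was lost at an adjusted p under 0.01 and with the p-value read as unadjusted, which left 2 lower FoxO targets.

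**Figure D4:**
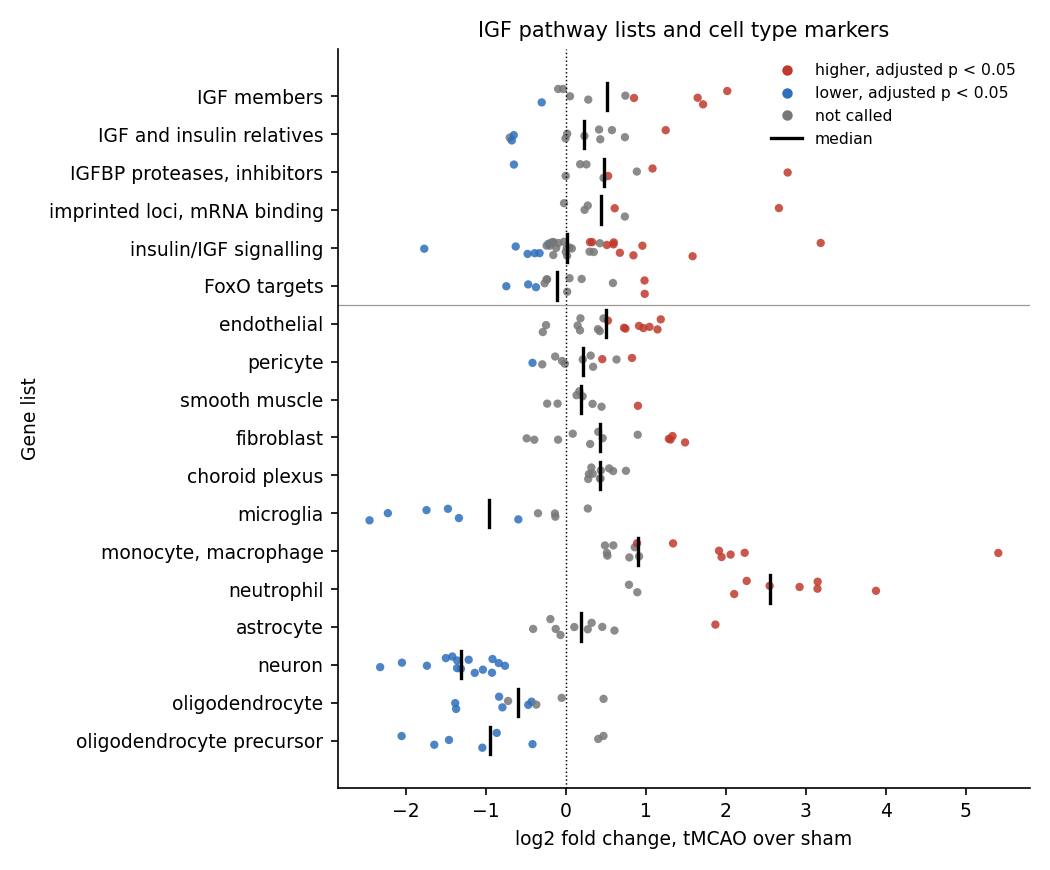
Log2 fold change (log2FC) of tMCAO over sham (x axis) for every tested gene of the IGF family, the 5 other IGF lists (above the grey line) and 12 cell type marker lists (below it). Each point is a gene coloured by its call, and black bars are medians. The IGF family reaches from -0.30 to 2.02, while neuron and microglia markers lie mostly on the left and neutrophil markers on the right.

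Markers of some of the cell types known to make these proteins moved as well. For all marker counts below, the shares over all tested genes were 15.2% higher and 17.6% lower. Endothelial markers rose in 8 of 16 genes and fell in 0 (8 and 0 at an unadjusted p under 0.05), with a median of 0.50 and values from -0.29 to 1.18. Emcn was at 1.14 and Egfl7 at 1.04 per the authors' deposited table. Igfbp3, Igfbp4 and Igfbp7 stood above the highest of these 16 markers. Esm1, a gene of activated endothelium outside this list, stood higher still at 3.35 per the authors' deposited table, without a p-value. Once the endothelial median was subtracted, 3 members were called higher, Igfbp3 at 1.15, Igfbp4 at 1.52 and Igfbp7 at 1.22, but not Igfbp5. With that subtraction 705 of the 19294 tested genes were called higher. In whole vessels, more cells of a type, more RNA per cell and a smaller share of RNA from non-vessel cells cannot be told apart.

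Fibroblast markers, relevant to Igf2, Igfbp2, Igfbp4, Igfbp5 and Igfbp6, rose in 4 of 12 genes and fell in 0 (4 and 0 at an unadjusted p under 0.05). Their median was 0.43 and their values ran from -0.49 to 1.49, including Aldh1a2 at 1.49 and Dcn at 1.31 per the authors' deposited table. Pericyte markers rose in 2 of 11 and fell in 1 (median 0.21), and smooth muscle markers rose in 1 of 8 (median 0.19). The pericyte marker that fell is also counted among the oligodendrocyte precursor markers, and a fibroblast marker is shared with that list too. Choroid plexus markers, relevant to Igf2 and Igfbp2, were called in 0 of 10 genes by adjusted or unadjusted p, with values from 0.28 to 0.75. Astrocyte markers rose in 1 of 10 (Gfap at 1.87 per the authors' deposited table, median 0.19). The part of these cell types in the rise of the binding proteins was not tested.

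Markers of cell types known for Igf1 moved in opposite directions. Microglia markers fell in 6 of 10 genes (median -0.97, values up to 0.27), with Gpr34 at -2.23 and Siglech at -2.46 per the authors' deposited table. Monocyte and macrophage markers rose in 7 of 14 (median 0.90, values from 0.49), with Arg1 at 5.40 and Itgam at 1.91 per the authors' deposited table. The other markers of both lists were not called. Neutrophil markers rose in 7 of 9 (median 2.55). Neuron markers, which bear on Igf1r and Igf1, fell in 15 of 15 genes, with values from -2.32 to -0.76, against -0.30 for Igf1r. Markers of oligodendrocytes fell in 6 of 10 (median -0.60) and those of their precursors in 6 of 8 (median -0.95). Their part in the values of Igf1 and Igf1r was not tested.

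The direction of several members depended on what was taken as unchanged. Ribosomal protein genes had a median log2FC of 0.91 in the same table. With that value subtracted, Igfbp4 at 1.10 and Igfbp7 at 0.80 remained called higher, and Igfbp3 and Igfbp5 were no longer called. Igf1, Igf2, Igf1r and Igf2r were then called lower, but so were 15113 of the 19294 tested genes, while 326 were called higher. Centring on the 4824 genes with the smallest implied standard error moved every gene by 0.01 and changed no member's call.

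**Figure D5:**
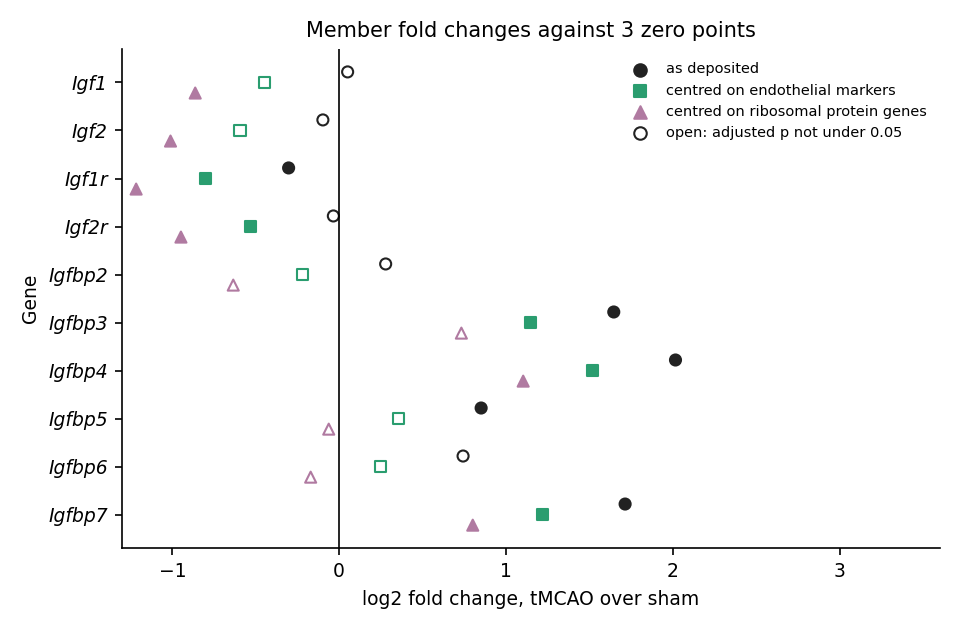
Log2 fold change (log2FC) of tMCAO over sham (x axis) of the 10 IGF family genes as deposited (circles), after subtracting the median of endothelial markers (squares) and after subtracting the median of ribosomal protein genes (triangles). Filled symbols have an adjusted p under 0.05. Igfbp4 and Igfbp7 stay filled and right of 0 in all 3.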

How the data were processed

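RNA was measured by sequencing of ribosome-depleted total RNA from brain microvessels, per the labels' protocols, in 4 tMCAO and 4 sham libraries, grouped by title and treatment. Tools named, without roles, in the submitters' processing notes were STAR, HTSeq, DESeq2, cutadapt and bcl2fastq 2.19, and the build was GRCm38 (mm10). The deposited files hold a log2FC and a p-value per gene from the authors' own comparison, per the file headers, and 0 columns per library, so depth per library is unknown here. The authors' linear fold (ratio) repeats the log2 value without the logarithm, and the score the authors deposited (Z-score) is the same log2 value rescaled by its mean and SD. Both were checked within 1e-06 for 18393 genes and not used further.

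The p-value was read as adjusted because 3214 p-values recur in genes that differ in fold change. Unadjusted p-values were recovered from adjusted p and rank, and turned into implied standard errors on a normal scale (scipy 1.17.1). This step was run on data simulated under the same normal model, which checks its arithmetic but not the model or any shrinkage. 8 log2 values are each shared by at least 100 genes, which does not settle whether the authors shrank the fold changes. Shrinkage is not stated, and folds and errors are approximate for that reason.

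The members and lists were chosen with earlier results of these data known. Named genes follow a rule: all members; up to 8 called genes of each IGF list by adjusted p; from cell type lists the 2 smallest adjusted p, where named; and the neighbour pairs of members. Of the deposited gene IDs 48044 are in GENCODE M21, all 10 members among them; RefSeq promoters matched all 10. Protein sequences were not used here, and 1 gene that the rule names is not reported here.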

Additional observations from a re-analysis of the deposited data

How the results depend on the processing

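No paired analysis was possible because the deposited values are results of a comparison and the library numbers of the groups are not shared; leaving out single libraries was not run for the same reason. Of 60 recomputed member values, 46 kept their direction and call, but this pooled count says little about direction. The stricter threshold, the unadjusted reading and the adjustment over protein-coding genes only left every log2FC as deposited. Centring on the genes with the smallest implied standard error barely moved it (Igf1 from 0.05 to 0.06). All 6 sign changes came with centring on markers, 2 with endothelial markers (Igf1 at -0.45) and 4 with ribosomal protein genes (Igf1 at -0.86).

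At an adjusted p under 0.01, 1885 genes were called higher over the whole table, Igf1r (-0.30) and Igfbp5 (0.85) lost their calls, 0 members were lower, and the counts were 0 lower relatives, 1 higher imprinted-locus gene and 5 higher signalling genes. With the deposited p-value read as unadjusted these were 1941 genes higher, 0 members lower (Igf1r at -0.30 lost its call), 0 lower relatives, 1 higher imprinted-locus gene and 6 higher signalling genes. At an unadjusted p under 0.05, 1 member and 2 relatives were lower.

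Subtracting a constant moves all genes: centred on endothelial markers, 705 genes were higher and 10562 lower, 2 members were lower (Igf1r and Igf2r, the second at -0.53), Igf1 (-0.45) and Igfbp2 (-0.22) changed sign, and Igfbp5 (0.35) lost its call. Centred on ribosomal protein genes, 326 genes were higher and 15113 lower, 2 members higher and 4 lower; Igf1 (-0.86), Igfbp2 (-0.63), Igfbp5 (-0.063) and Igfbp6 (-0.17) changed sign, Igf2 (-1.01) and Igf2r (-0.95) became called lower, and Igfbp3 (0.73) lost its call. Why ribosomal protein genes rose was not tested. Igfbp4 and Igfbp7 kept direction and call in all 6 alternatives. Precision is limited for Igf2, Igfbp2, Igfbp3 and Igfbp6, whose implied standard errors were 0.38 to 0.45.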

Other observations

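Several genes tied to the IGF system carried large fold changes without a deposited p-value, and the labels do not say why. Esm1, which encodes endocan, a proteoglycan of activated endothelium whose protein has an IGF-binding-protein domain, had a log2FC of 3.35 (10.2-fold) per the authors' deposited table. Pappa, the protease that frees IGF from IGFBP4, stood at 2.61 (6.12-fold) and Igfbp1 at 0.96 (1.95-fold) per the authors' deposited table. In the same IGF lists, Igf2bp3 at 0.43, Adam28 at 0.36, Plg at -0.04 and Klk1 at -0.09 also lacked a p-value. None of these values has a test or a recovered error.

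Pappa and its inhibitor gene Stc1 had similar fold changes, 2.61 and 2.77 on the log2 scale per the authors' deposited table. In the same comparison Igfbp4, whose protein is a substrate of the Pappa protease, rose by 2.02. The related inhibitor gene Stc2 had a log2FC of 0.18 (adjusted p = 0.70) and Pappa2 one of 0.00 (adjusted p = 0.99) per the authors' deposited table. These genes were singled out after their values were seen, and Pappa has no p-value.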
